A study of Mus musculus with 3 samples.

Results

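The respiratory chain genes examined here encode the nuclear subunits of mitochondrial complexes I to IV, together with assembly factors that share their symbols' first letters. Members were all genes with a single-gene probe set whose symbol starts with Nduf, Sdha, Sdhb, Sdhc, Sdhd, Uqcr, Cox4, Cox5, Cox6, Cox7 or Cox8, which gave 77 of 18194 named genes on the array, read by 154 of 45101 probe sets. Each gene was represented by its probe set with the highest mean signal over the 3 arrays. There were 36 genes with complex I symbols, 4 of complex II, 8 of complex III and 17 of complex IV, and 12 assembly factors (symbols starting with Ndufaf or Sdhaf).

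Expression was measured on Affymetrix oligonucleotide arrays in mouse LSK cells, a marker-defined fraction in which stem cells and multipotent progenitors of the blood are found. The study concerned the quiescence of blood stem cells. There was 1 array for cells lacking both p53 and Mef (p53 -/- Mef -/-, called DKO), 1 for cells lacking p53 alone (p53 -/-, called p53 KO) and 1 for wild-type cells (WT). Mef, also called Elf4, is an ETS family transcription factor, and loss of p53 is shared by both knockout arrays. The kind of allele, the age of the animals and how many were pooled are not given in the sources used here. With 1 array per genotype there was no replicate and no test, so every difference below describes a pair of arrays, and both comparisons with WT share the 1 WT array.

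The respiratory chain passes electrons from NADH (complex I) and succinate (complex II) through ubiquinone to complex III, then through cytochrome c to complex IV, which reduces oxygen. Complexes I, III and IV pump protons, and ATP synthase uses the resulting gradient. Haematopoietic stem cells are known for relying largely on glycolysis while quiescent and for raising mitochondrial respiration as they divide and differentiate. In many of these genes the promoter is known to be bound by the transcription factor NRF1 or by the ETS factor GABP.

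Signals are deposited intensities in arbitrary units. The 2% trimmed mean was 500 on every array, while the median signal was 129 for DKO, 105 for p53 KO and 98.0 for WT. Signals under 110.4, the median of all signals, were set to that floor before log2 was taken, and the 12597 genes with at least 1 signal over that floor counted as measured. Elf4 gave 151 (DKO), 182 (p53 KO) and 57.4 (WT) by 1 probe set and 129 (DKO), 173 (p53 KO) and 74.3 (WT) by the other. It was thus not lowest on the array labelled DKO. The sources used here do not say whether these probe sets lie in the deleted part, the level of p53 was not analysed here, and all directions rest on the labels. Kit, a surface marker that defines LSK cells, was measured on every array at 4873 (DKO), 2522 (p53 KO) and 4996 (WT), and Sca-1 (Ly6a) was not analysed here. As a reading of RNA quality, signal at the 3' end of actin was 9.19 (DKO), 6.20 (p53 KO) and 8.29 (WT) times that at its 5' end, and of Gapdh 5.90 (DKO), 6.61 (p53 KO) and 5.85 (WT) times, and their part in the results was not tested.

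The letters of both known classes of regulator can be looked for in promoters. Those of 4 members at least 2-fold lower than WT on a knockout array are shown. Each is the 250 bases before the start site, from RefSeq (build GRCm38.p6), 5′ to 3′ on the gene's strand, with matches to GCATGCGC (the core of NRF1's motif, searched on both strands and extended to the full palindrome where present) and to CCGGAAG (an ETS core, both strands) in capitals. The window of Ndufaf4 is chr4:24897833-24898082, plus strand, that of Uqcr11 chr10:80406822-80407071, minus strand, that of Uqcrfs1 chr13:30545317-30545566, minus strand, and that of Cox6b2 chr7:4753095-4753344, minus strand.
Ndufaf4: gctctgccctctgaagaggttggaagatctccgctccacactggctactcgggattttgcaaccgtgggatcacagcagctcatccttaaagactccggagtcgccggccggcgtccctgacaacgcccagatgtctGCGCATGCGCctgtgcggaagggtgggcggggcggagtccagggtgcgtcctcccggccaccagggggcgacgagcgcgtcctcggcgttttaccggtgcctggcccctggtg
Uqcr11: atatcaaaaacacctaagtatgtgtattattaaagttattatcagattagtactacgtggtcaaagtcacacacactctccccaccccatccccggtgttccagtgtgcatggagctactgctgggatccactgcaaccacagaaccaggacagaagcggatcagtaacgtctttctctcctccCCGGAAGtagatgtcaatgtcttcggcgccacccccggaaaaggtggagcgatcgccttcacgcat
Uqcrfs1: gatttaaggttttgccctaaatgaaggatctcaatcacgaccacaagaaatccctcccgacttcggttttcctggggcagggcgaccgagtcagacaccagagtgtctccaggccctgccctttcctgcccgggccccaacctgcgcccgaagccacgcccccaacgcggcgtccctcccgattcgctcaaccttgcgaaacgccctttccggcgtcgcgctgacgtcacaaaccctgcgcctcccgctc
Cox6b2: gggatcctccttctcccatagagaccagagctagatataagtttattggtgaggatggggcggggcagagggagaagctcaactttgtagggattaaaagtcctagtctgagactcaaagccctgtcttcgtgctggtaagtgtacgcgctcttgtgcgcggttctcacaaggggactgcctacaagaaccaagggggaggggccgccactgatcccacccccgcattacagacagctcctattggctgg

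The Ndufaf4 window holds the full NRF1 palindrome, in which matches to the core on the 2 strands overlap, starting 113 bases before the start site. In Uqcr11 the ETS core starts 66 bases before it, and neither motif is in these windows of Uqcrfs1 and Cox6b2. The window of Ndufb2, also at least 2-fold lower on p53 KO but not printed, held neither motif. No promoter was found for Uqcrq. Promoters were found for 59 of the 71 measured members. The ETS core was in those of 12 members (20.3%), against 14.9% of 10204 measured genes with a promoter and 7.83% of all 27025 genes with 1. A gene with several promoters was counted if any held the match. GCATGCGC was in those of 5 members (8.47%), namely Cox6a1, Ndufa6, Ndufa8, Ndufaf4 and Sdhb, against 4.87% of measured genes and 2.56% of all genes. The full palindrome was in Cox6a1 and Ndufaf4 (3.39%), against 1.85% of measured genes and 0.877% of all genes. The median log2 difference of p53 KO against WT was -0.69 for members with the ETS core and -0.47 for those without it. For DKO against WT it was -0.39 with the ETS core and -0.29 without. For the 5 members with GCATGCGC the medians were -0.60 (p53 KO) and -0.58 (DKO). Those without GCATGCGC were at -0.48 (p53 KO) and -0.31 (DKO). All of these medians were thus below 0. A match describes letters in a window and is not a binding site.

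Of the 77 members, 71 were measured. By the brightest probe set all 71 were over the floor on every array, so none of those differences is a bound. The 6 that were not measured were Ndufa4l2, Ndufb4, Cox4i2, Cox7a1, Cox7b2 and Cox8b. Most of these have restricted expression: Cox7a1 and Cox8b are isoforms of heart and skeletal muscle, Cox7b2 is a testis isoform, Cox4i2 is best known from lung, and Ndufa4l2 is known as a hypoxia-induced relative of Ndufa4. Of 12 marker genes of heart and skeletal muscle, 2 reached the floor in DKO cells, 1 in p53 KO cells and 1 in WT cells. Ndufb4, a widely expressed accessory subunit, was under the floor by its only single-gene probe set. A probe set shared with its copies Ndufb4b and Ndufb4c gave 2894 (DKO), 2500.0 (p53 KO) and 3729 (WT) and was left out by the rule.

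Most respiratory chain genes were lower on both knockout arrays than on the WT array, by modest amounts. The median was below 0 in each of the 4 complexes. That of complex IV was only -0.15 for p53 KO, and 5 of its 13 measured genes were higher than WT on DKO. Against WT, 66 of 71 measured members were lower on the p53 KO array, where 47.0% of all measured genes were, and 59 of 71 on the DKO array, where 41.1% of all genes were. Genes with no difference, such as those held at the floor on both arrays, count as not lower in these shares. The median log2 difference was -0.45 for p53 KO (a signal at 73.2% of WT) and -0.32 for DKO (80.3% of WT), while over all measured genes it was 0.00 (p53 KO) and 0.07 (DKO). WT had the highest of the 3 signals for 58 members, DKO for 10 and p53 KO for 3, whereas WT was highest for 28.9% of all measured genes. Between the knockouts the members did not stand apart by their median, which for DKO against p53 KO was 0.10, beside 0.11 for all measured genes.

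**Figure D1:**
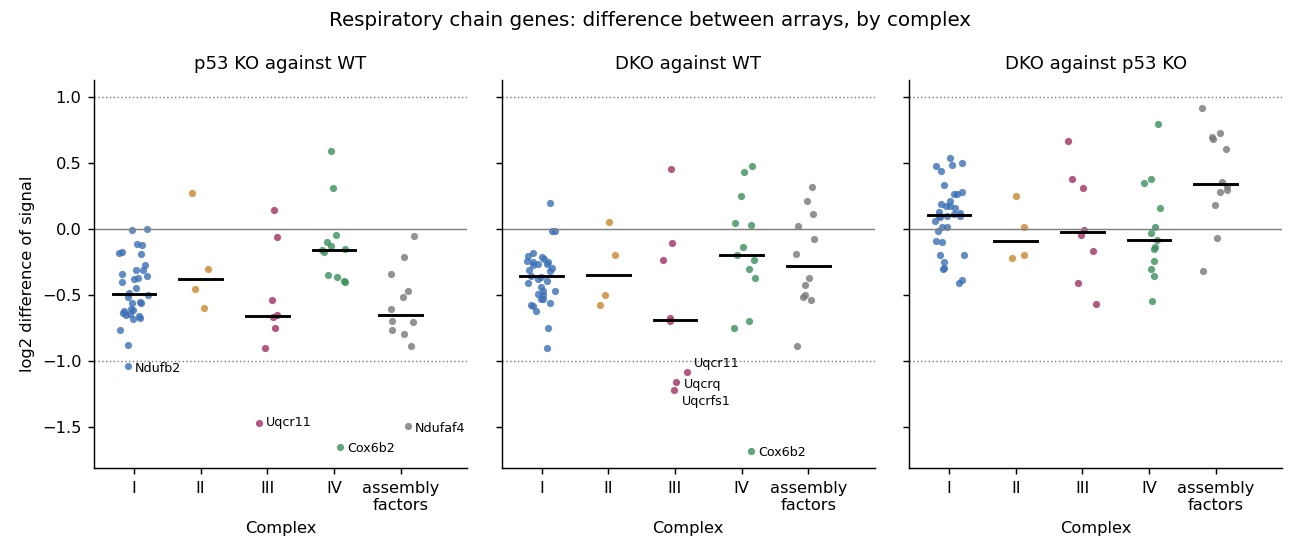
Each point is 1 measured respiratory chain gene, grouped by complex I to IV and assembly factors, and the vertical axis is the log2 difference of signal for p53 KO against WT (left), DKO against WT (middle) and DKO against p53 KO (right). Black bars are medians, dotted lines mark 2-fold, and named points lie at or beyond it. Nearly all complex I genes lie below 0 against WT, with medians of -0.49 for p53 KO and -0.36 for DKO.

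Most differences were under 2-fold. On the p53 KO array 4 members (Cox6b2, Ndufaf4, Ndufb2 and Uqcr11) were at least 2-fold lower than on WT and 0 at least 2-fold higher, where 3.19% and 6.51% of all measured genes were. For DKO the 2-fold counts were 4 lower (Cox6b2, Uqcr11, Uqcrfs1 and Uqcrq) and 0 higher, beside 3.10% and 5.22% of all genes. A share of 5.63% lower in each is not far from these backgrounds, and the 2-fold counts are used here to name genes. They depend on the probe set rule: with only probe sets that have no _s_, _x_ or _a_ in their name, 8 of 53 members were at least 2-fold lower for p53 KO, where 3.05% of all genes were, and 6 of 53 for DKO, where 2.94% were. At 1.5-fold, 26 of 71 members were lower and 1 (Cox8a) higher on the p53 KO array, a share of 36.6% lower against 12.5% of all genes, with 15.4% of all genes higher. These 26 held 12 genes of complex I, 1 of complex II, 5 of complex III, 1 of complex IV and 7 assembly factors. On the DKO array 12 members were at least 1.5-fold lower (16.9%, against 9.52% of all genes) and 0 higher (against 17.1%).

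**Figure D2:**
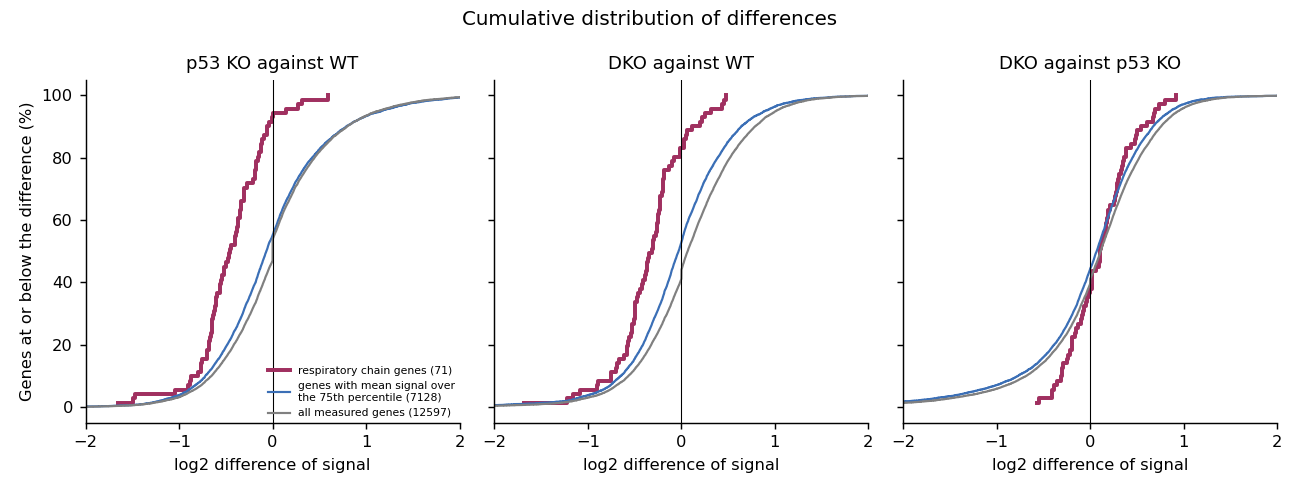
The share of genes at or below each log2 difference of signal is drawn for 71 respiratory chain genes (red), 7128 genes with a mean signal over the 75th percentile (blue) and all 12597 measured genes (grey), for the 3 comparisons. The red curve lies left of the others in both comparisons with WT. For DKO against p53 KO the medians are close, at 0.10 for the members and 0.11 for all genes. No member was at least 1.5-fold lower there, against 12.2% of all genes, and 9.86% were at least 1.5-fold higher, against 17.0%.

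Most members are bright genes, with 61 of 71 having a mean signal over the 75th percentile of all signals (448). Over the 7128 measured genes that bright, the median was -0.07 for p53 KO against WT and -0.03 for DKO against WT. Of these genes, 55.1% were lower on p53 KO and 52.9% on DKO, beside 57 (p53 KO) and 53 (DKO) of the 61 bright members. The bright members were at -0.44 (p53 KO) and -0.35 (DKO). Genes over that cut-off, taken as a set, thus did not show a shift of the members' size. That set is not matched to the members in brightness, since many members lie far over 448 (Uqcrb at a mean of 26818). With cyclic loess, a scaling that depends on brightness, the members' medians were -0.38 (p53 KO) and -0.26 (DKO). The part of brightness in the result was not tested.

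Complex I, which oxidises NADH and is the entry point of most electrons, had 33 of 34 measured genes lower in p53 KO cells and 33 of 34 in DKO cells, with medians of -0.49 (p53 KO) and -0.36 (DKO) against WT. Its core subunits carry the flavin and iron-sulphur clusters. Ndufs1, the largest of them, had signals of 2332 in DKO cells, 2478 in p53 KO cells and 3372 in WT cells. Ndufv1, which holds the flavin and the NADH site, gave 8779 (DKO), 8667 (p53 KO) and 10936 (WT). Both were lower on each knockout array, at -0.44 and -0.34 for p53 KO and -0.53 and -0.32 for DKO. Core subunits Ndufv2, Ndufs3, Ndufs7 and Ndufs8, which bind or neighbour iron-sulphur clusters, were at -0.66, -0.68, -0.55 and -0.64 for p53 KO and at -0.49, -0.58, -0.44 and -0.47 for DKO. All 6 measured core subunits were therefore lower on both knockout arrays by their brightest probe set. A further Ndufs8 probe set, with 878 (DKO), 753 (p53 KO) and 561 (WT), ran the other way, at 0.43 (p53 KO) and 0.65 (DKO). The other further probe sets of Ndufs8 were lower on both.

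Accessory subunits of complex I, which surround the core and are needed for its assembly and stability, ranged from -1.04 (Ndufb2) to 0.00 (Ndufv3) for p53 KO and from -0.90 (Ndufb9) to 0.20 (Ndufa12) for DKO. Ndufb2 had signals of 1951 in DKO cells, 1342 in p53 KO cells and 2756 in WT cells, a difference of -1.04 for p53 KO and -0.50 for DKO. It was the only complex I gene past 2-fold, and its 2 further probe sets gave -0.63 and -0.61 for p53 KO, so neither reached 2-fold. For DKO these 2 parted, at -0.59 and 0.32. Next for p53 KO were Ndufb6, with signals of 6577 (DKO), 4697 (p53 KO) and 8620.3 (WT) and a difference of -0.88, and Ndufs5 at -0.76. For DKO the lowest were Ndufb9 (-0.90), Ndufb10 (-0.75) and Ndufa8 (-0.62). Ndufb9 gave 6405 (DKO), 8347 (p53 KO) and 11929 (WT), so the DKO value was the lowest of the 3 there. Ndufab1, the mitochondrial acyl carrier protein, was at -0.56 (p53 KO) and -0.29 (DKO). Of its dimmer probe sets, 1 gave -0.83 (p53 KO) and -0.43 (DKO) and 1 gave -0.60 (p53 KO) and 0.47 (DKO). Another gave 0.00 (p53 KO) and 0.46 (DKO), with p53 KO and WT under the floor, so its 0.46 is a bound. Ndufa13, also known as GRIM-19, was at -0.31 (p53 KO) and -0.41 (DKO). At the upper end for p53 KO were Ndufv3 (0.00), Ndufa3 (-0.01) and Ndufb1 (-0.11). For DKO they were Ndufa12 (0.20), Ndufb1 (-0.01) and Ndufa6 (-0.01). Ndufa4, now assigned to complex IV although it keeps a complex I symbol, was at -0.61 (p53 KO) and -0.27 (DKO), and the remaining ones, Ndufa1, Ndufa2, Ndufa5, Ndufa7, Ndufa9, Ndufa10, Ndufb3, Ndufb5, Ndufb7, Ndufb8, Ndufb11, Ndufc1, Ndufc2 and Ndufs4, ran from -0.68 to -0.12 for p53 KO and from -0.56 to -0.18 for DKO. All of these were lower on both knockout arrays by their brightest probe set. However, 2 further probe sets of Ndufs4 were higher than WT for DKO, at 0.48 and 0.24. A further probe set of Ndufb7 was at 0.07 for p53 KO.

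Complex II is succinate dehydrogenase and also belongs to the citric acid cycle. Sdha, the flavoprotein that oxidises succinate, differed from the other 3 genes of the complex by its brightest probe set, with 7484 in DKO cells, 8715 in p53 KO cells and 7203 in WT cells, or 0.27 (p53 KO) and 0.06 (DKO) against WT. A further Sdha probe set gave 3974 (DKO), 4095 (p53 KO) and 5036 (WT), or -0.30 (p53 KO) and -0.34 (DKO), so the sign depends on the probe set. Sdhb, the iron-sulphur subunit, had 4269 (DKO), 4215 (p53 KO) and 6369 (WT) and was lower on both knockout arrays (-0.60 (p53 KO) and -0.58 (DKO)). The membrane anchors Sdhc and Sdhd were at -0.45 and -0.30 for p53 KO and -0.20 and -0.50 for DKO. A further probe set of Sdhc ran the other way, at 0.28 (p53 KO) and 0.27 (DKO). That of Sdhd gave -0.50 (p53 KO) and 0.14 (DKO).

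Complex III, which passes electrons from ubiquinol to cytochrome c, had medians of -0.66 for p53 KO and -0.68 for DKO, and 7 of its 8 genes were lower in each comparison with WT. These were the lowest medians of the 4 complexes, but with only probe sets that have no _s_, _x_ or _a_ in their name the p53 KO median of complex III was -0.25, the highest of the 4, beside -0.61 for complex I, -0.30 for complex II and -0.36 for complex IV. Uqcrfs1 encodes the Rieske iron-sulphur protein, a catalytic subunit. Its signals were 3064 in DKO cells, 4546 in p53 KO cells and 7140.5 in WT cells, or -0.65 for p53 KO and -1.22 for DKO against WT. The DKO array was the lowest and the WT array the highest for this gene, which has 1 probe set. Uqcr11, a small accessory subunit, had 1244 (DKO), 954 (p53 KO) and 2638 (WT) and differences of -1.47 (p53 KO) and -1.08 (DKO), so both knockout arrays were over 2-fold lower by its 1 probe set. Uqcrq, a subunit that contacts cytochrome b, gave 801 (DKO), 1064 (p53 KO) and 1791 (WT), or -0.75 (p53 KO) and -1.16 (DKO). Its 3 further measured probe sets were much dimmer and for DKO ran the other way, from 0.15 to 0.83. For p53 KO they lay from -0.22 to 0.00. The 0.83 and the 0.00 come from a probe set under the floor on p53 KO (86.0) and WT (109), so the 0.83 is a bound. The core proteins Uqcrc1 and Uqcrc2 were at -0.54 and -0.67 for p53 KO and -0.70 and -0.67 for DKO. Uqcrh, the hinge protein, was at -0.90 for p53 KO and -0.23 for DKO, and its further probe set gave -0.13 (p53 KO) and -0.98 (DKO), so the 2 probe sets part on which knockout array is lower. Uqcrb was close to WT at -0.06 (p53 KO) and -0.10 (DKO). Uqcr10 was at 0.15 (p53 KO) and 0.46 (DKO) by its brightest probe set but at -0.01 (p53 KO) and -0.46 (DKO) by a dimmer one. The -0.46 is a bound, because the DKO signal of that probe set (58.8) was under the floor.

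**Figure D3:**
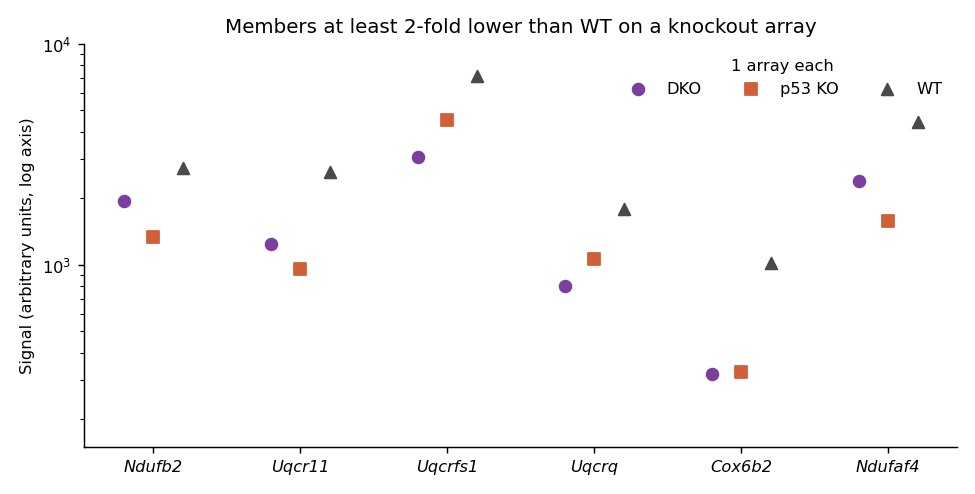
The signal (arbitrary units, log axis) on the DKO, p53 KO and WT arrays is plotted for the 6 members at least 2-fold lower than WT on a knockout array. WT is the highest of the 3 points for each gene, the DKO point is the lowest for Uqcrfs1, Uqcrq and Cox6b2, and the p53 KO point is the lowest for Ndufb2, Uqcr11 and Ndufaf4.

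Complex IV, cytochrome c oxidase, had medians of -0.15 for p53 KO and -0.20 for DKO over 13 measured genes. They were the closest to 0 of the 4 complexes, but not in every setting. With the restricted probe sets the p53 KO median was -0.36, farther from 0 than those of complexes II and III. With the mean of all probe sets complex II was at -0.07 for DKO, against -0.25 for complex IV. Cyclic loess brought complex IV to -0.04 (p53 KO) and -0.10 (DKO). Of its 13 measured genes, 11 were lower in p53 KO cells and 8 in DKO cells. Cox4i1, the widely expressed form of the subunit that regulates the enzyme, had signals of 13245 in DKO cells, 14013 in p53 KO cells and 15534 in WT cells, or -0.15 (p53 KO) and -0.23 (DKO) from WT. Cox5a, which binds next to it, was at -0.15 (p53 KO) and -0.13 (DKO) by a very bright probe set. A less bright Cox5a probe set gave 4343 (DKO), 3891 (p53 KO) and 6390.0 (WT), or -0.72 (p53 KO) and -0.56 (DKO), a larger difference in the same direction. Cox5b, which binds zinc, was lower on both knockout arrays by all its measured probe sets. The brightest gave 15209 (DKO), 18779.6 (p53 KO) and 24598 (WT), or -0.39 (p53 KO) and -0.69 (DKO), and the dimmest -1.11 (p53 KO) and -1.19 (DKO). Cox7a2 was at -0.40 (p53 KO) and -0.75 (DKO). At the upper end, Cox8a was at 0.59 for p53 KO and 0.05 for DKO. Its 2 further measured probe sets were lower on both, at -0.25 and -0.38 for p53 KO and -0.21 and -1.96 for DKO. The -0.25 is a bound, because its p53 KO signal (78.8) was under the floor. Cox7a2l, which helps join complex IV to complex III in supercomplexes, was at -0.09 (p53 KO) and 0.25 (DKO). For Cox6c the differences were -0.35 (p53 KO) and 0.03 (DKO), with -0.32 (p53 KO) and -0.33 (DKO) by a further probe set, and for Cox7c -0.04 (p53 KO) and -0.20 (DKO).

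Some subunits of complex IV have isoforms restricted to a tissue. Cox6b2, a testis isoform of Cox6b1, was the member with the largest difference in both comparisons with WT. It had signals of 319 in DKO cells, 326 in p53 KO cells and 1022 in WT cells, or -1.65 (p53 KO) and -1.68 (DKO), so the knockout arrays were alike and over 3-fold under WT. Cox6b1 itself was at -0.17 (p53 KO) and -0.30 (DKO). Cox6b2 has 1 probe set. Of 10 testis marker genes, 4 reached the floor in DKO cells, 3 in p53 KO cells and 3 in WT cells. Their summed signals were 4601 (DKO), 3508 (p53 KO) and 2884 (WT). Much of this came from Odf2, at 2237 (DKO), 3002 (p53 KO) and 2315 (WT). Prm1 gave 1718 (DKO), 2.29 (p53 KO) and 3.48 (WT). The part of these markers in the result was not tested. Cox8c, another testis isoform, ran at 442 (DKO), 254 (p53 KO) and 327 (WT), or 0.80 for DKO against p53 KO. Its further measured probe set gave -0.54 there, the opposite sign, as a bound because its DKO signal (82.9) was under the floor. Cox6a2, the muscle form of Cox6a1, was at 353 (DKO), 315 (p53 KO) and 253 (WT), with differences of 0.32 (p53 KO) and 0.48 (DKO), while Cox6a1 was at -0.13 (p53 KO) and -0.37 (DKO).

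The 12 assembly factors build the complexes without staying in them. All 12 were lower on the p53 KO array than on WT (median -0.65), whereas 8 were lower on the DKO array (median -0.28). For DKO against p53 KO their median was 0.34, with 10 of 12 higher, beside 0.11 for complex I, -0.09 for complex II, -0.02 for complex III and -0.08 for complex IV. With the restricted probe sets their medians against WT were -0.64 for p53 KO and -0.46 for DKO, while those of complex III lay farther apart, at -0.25 for p53 KO and -0.98 for DKO. Ndufaf4, an assembly factor of complex I, had signals of 2400.4 in DKO cells, 1575 in p53 KO cells and 4438 in WT cells, or -1.49 for p53 KO and -0.89 for DKO. Its further probe set gave 909.9 (DKO), 640.0 (p53 KO) and 1161 (WT), or -0.86 (p53 KO) and -0.35 (DKO), the same order of arrays with smaller differences. Ndufaf8 was at -0.88 (p53 KO) and -0.18 (DKO), with -0.68 (p53 KO) and -1.03 (DKO) by a much dimmer probe set, Ndufaf2 at -0.60 (p53 KO) and 0.32 (DKO), Ndufaf5 at -0.52 (p53 KO) and 0.22 (DKO), and Ndufaf7 at -0.76 (p53 KO) and -0.07 (DKO). Ndufaf1 was at -0.70 (p53 KO) and -0.51 (DKO), Ndufaf3 at -0.47 (p53 KO) and -0.54 (DKO), and Ndufaf6 at -0.71 (p53 KO) and -0.42 (DKO), so these 3 were below WT on both. Of the complex II factors, Sdhaf3 was at -0.80 (p53 KO) and -0.50 (DKO), Sdhaf1 at -0.34 (p53 KO) and 0.02 (DKO), Sdhaf4 at -0.21 (p53 KO) and 0.12 (DKO), and Sdhaf2 at -0.05 (p53 KO) and -0.37 (DKO).

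Loss of Mef on the p53-null background was addressed by setting DKO against p53 KO. Of 71 members, 27 (38.0%) were lower on the DKO array, where 39.7% of all measured genes were. No member reached 2-fold in this comparison, higher or lower, where 4.10% and 5.93% of all genes did. At 1.5-fold 7 were higher (Cox8c, Uqcrh and the assembly factors Ndufaf2, Ndufaf4, Ndufaf5, Ndufaf7 and Ndufaf8) and 0 lower, against 17.0% and 12.2% of all genes. Of these, Cox8c, Uqcrh and Ndufaf8 have a further measured probe set that was lower on DKO than on p53 KO, at -0.54, -0.85 and -0.36. That of Ndufaf4 was higher at 0.51. The -0.54 of Cox8c is a bound, because its DKO signal was under the floor. The highest were Ndufaf2 at 0.92, Cox8c at 0.80 and Ndufaf5 at 0.73. The lowest were Uqcrfs1 at -0.57, Cox8a at -0.55 and, level with each other, Ndufs4 and Uqcrq at -0.41 and -0.41. Further probe sets ran the other way for Ndufs4, at 0.58 and 0.54, and for Uqcrq, from 0.35 to 0.83, and those of Cox8a gave 0.04 and -1.58. The 0.35 and 0.83 of Uqcrq and the 0.04 of Cox8a are bounds, because their p53 KO signals were under the floor. Within complex I, Ndufb2 (0.54), Ndufa12 (0.50) and Ndufb6 (0.49) were highest and Ndufs4, Ndufb9 (-0.38) and Ndufa3 (-0.30) lowest.

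Further probe sets give another reading of the same RNA, though not a replicate. Of 65 further measured probe sets of 40 members, 59 were lower on p53 KO than on WT and 49 lower on DKO, with medians of -0.44 (p53 KO) and -0.43 (DKO). They had the same sign as the brightest probe set of their gene in 54 of 63 cases for p53 KO, 47 of 64 for DKO and 42 of 64 for DKO against p53 KO, leaving out differences of exactly 0. The median gap between the 2 was 0.27, 0.33 and 0.20 on the log2 scale in the same order. These are medians over many genes, and single genes could part by more. For DKO against WT, Cox8a gave 0.05 by its brightest probe set and -1.96 by another. The 34 members with 1 probe set have no such reading. Some further probe sets were under the floor on 1 or more arrays, so their differences are bounds.

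**Figure D4:**
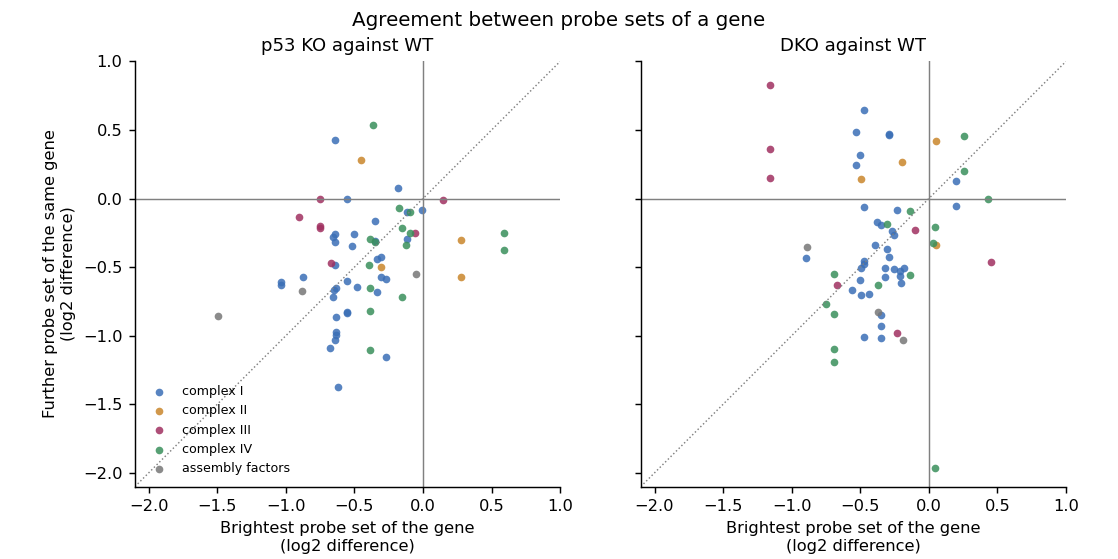
For each of 65 further measured probe sets of 40 members, the log2 difference from WT (vertical axis) is plotted against that of the gene's brightest probe set (horizontal axis), for p53 KO (left) and DKO (right), with the line of equality dotted. Most points lie below 0 on both axes, 54 with the same sign for p53 KO and 47 for DKO.

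Other genes of mitochondrial energy supply ran the same way. ATP synthase, which makes ATP from the proton gradient, had 15 of 15 measured genes lower on p53 KO and 14 on DKO, with medians of -0.40 (p53 KO) and -0.35 (DKO). At least 2-fold lower were 1 of them on p53 KO and 2 on DKO, and none was 2-fold higher on either. Atp5g1, 1 of the genes for the membrane ring subunit, had 791 in DKO cells, 944 in p53 KO cells and 2184 in WT cells, or -1.21 (p53 KO) and -1.46 (DKO), and Atp5l was at -0.58 (p53 KO) and -1.20 (DKO). Pyruvate dehydrogenase and citric acid cycle genes were lower than in WT in 16 of 17 cases for p53 KO and 16 of 17 for DKO with medians of -0.35 (p53 KO) and -0.38 (DKO), and Dld, the E3 subunit shared by several dehydrogenases, was the 1 past 2-fold, at -1.12 for DKO. Among 17 other electron carrier genes, Cyc1, the cytochrome c1 subunit of complex III, was at -0.53 (p53 KO) and -0.64 (DKO) and Cycs, cytochrome c, at -0.33 (p53 KO) and -0.29 (DKO). The list had medians of -0.41 (p53 KO) and -0.31 (DKO), with Coq3, an enzyme of ubiquinone synthesis, 2-fold lower on p53 KO (-1.09).

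Genes of mitochondrial import and structure had medians of -0.57 (p53 KO) and -0.43 (DKO), and 18 of 18 were lower on p53 KO and 17 on DKO, with 2 (p53 KO) and 1 (DKO) at least 2-fold lower. The chaperone gene Hspa9 gave 10785 (DKO), 5026 (p53 KO) and 13897 (WT), or -1.47 (p53 KO) and -0.37 (DKO), and Hspe1 was at -1.26 (p53 KO) and -0.76 (DKO). Tomm22, an import receptor, was 2-fold lower on DKO only, at -0.38 (p53 KO) and -1.08 (DKO). The 1 mitochondrially encoded subunit named on the array, ND5 of complex I, had 8255 in DKO cells, 7514 in p53 KO cells and 7622 in WT cells, or -0.02 (p53 KO) and 0.12 (DKO), and so was near WT on both.

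**Figure D5:**
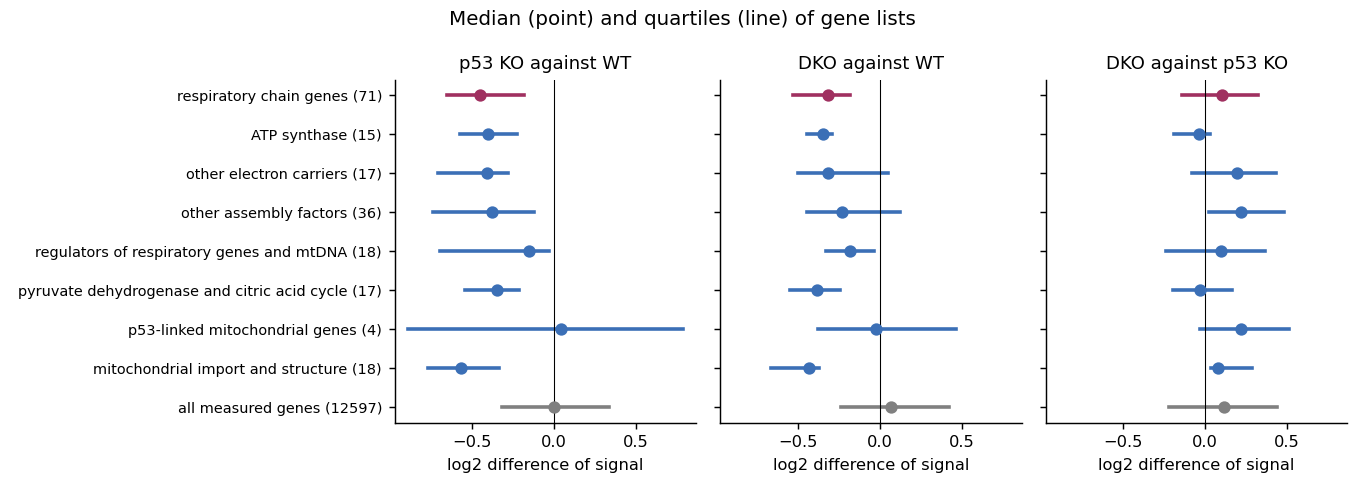
Points are the median and lines the quartiles of the log2 difference of signal for the respiratory chain genes (top row), 7 other gene lists and all measured genes (bottom row), with the number of measured genes in brackets, for the 3 comparisons. Against WT the top row lies at -0.45 (p53 KO) and -0.32 (DKO), beside ATP synthase at -0.40 (p53 KO) and -0.35 (DKO).

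Sco2, a copper chaperone needed to assemble complex IV and a known p53 target, is a gene through which p53 has been linked to respiration. Its signals were 473 in DKO cells, 209.7 in p53 KO cells and 589 in WT cells, or -1.49 for p53 KO and -0.32 for DKO against WT. Sco2 was thus over 2-fold lower on the p53 KO array but not on the DKO array. By their labels both lack p53, and the part of p53 in these differences was not tested. DKO against p53 KO was 1.17. Of 36 measured further assembly factors outside the members, 29 were lower on p53 KO and 23 on DKO with medians of -0.38 (p53 KO) and -0.23 (DKO), and for DKO against p53 KO the median was 0.22. Besides Sco2, those at least 2-fold lower on p53 KO were Slirp (-1.38), which stabilises mitochondrial messenger RNA, Uqcc2 (-1.14), a complex III factor, and Coa7 (-1.04), a complex IV factor. None was 2-fold lower on DKO. The p53-linked mitochondrial genes, 4 of 6 measured and Sco2 among them, had medians of 0.04 (p53 KO) and -0.03 (DKO). Tigar, which lowers glycolytic flux, was higher on both knockout arrays at 0.77 (p53 KO) and 1.06 (DKO), Rrm2b, a ribonucleotide reductase subunit, was at 0.83 (p53 KO) and 0.27 (DKO), and Aifm1, which supports complex I, was at -0.69 (p53 KO) and -0.55 (DKO).

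Among 18 measured regulators of respiratory genes and mitochondrial DNA, 14 were lower on each knockout array than on WT with medians of -0.15 (p53 KO) and -0.18 (DKO). Pprc1, a coactivator of the PGC-1 family, was the only 1 past 2-fold, with 1889 in DKO cells, 1133 in p53 KO cells and 2883 in WT cells, or -1.35 (p53 KO) and -0.61 (DKO). Tfam, which packages and transcribes mitochondrial DNA, was at -0.68 (p53 KO) and -0.29 (DKO). Nrf1 was at 0.18 (p53 KO) and -0.14 (DKO), and Gabpa, the ETS subunit of GABP, at -0.05 (p53 KO) and -0.34 (DKO), so these 2 factors stayed within 1.5-fold of WT. Ppargc1a was under the floor on every array.

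The arrays also differ in markers of blood lineages, and fewer cells of a type cannot be told apart from less RNA per cell in such samples. Erythroid markers, 12 of 13 named genes over the floor on each array, had summed signals of 36469 in DKO cells, 135556 in p53 KO cells and 120176 in WT cells. Their median log2 difference from WT was -0.04 for p53 KO, with 6 of 12 lower, and -1.73 for DKO, with 12 of 12 lower. Neutrophil markers, 12 of 12 over the floor, summed to 126751 (DKO), 223043 (p53 KO) and 129995 (WT), monocyte and macrophage markers (10 of 10) to 25392 (DKO), 61324 (p53 KO) and 24109.7 (WT), and B cell markers (9 of 9) to 3383 (DKO), 8072 (p53 KO) and 2140 (WT). Megakaryocyte markers summed to 7891 (DKO), 13604 (p53 KO) and 4689.8 (WT), with 8 (DKO), 9 (p53 KO) and 7 (WT) of 9 over the floor. Median differences of p53 KO from WT were 1.05 (neutrophil), 1.43 (monocyte and macrophage), 2.22 (B cell) and 1.03 (megakaryocyte). For DKO they were -0.33, 0.00, 0.57 and 0.39 in the same order, with 5 neutrophil markers higher and 7 lower. All 8 named LSK markers were over the floor on each array, and their sums were 29386 (DKO), 14632 (p53 KO) and 17360 (WT). By median they were not lower on p53 KO than on WT, at 0.13 with 5 of 8 higher. Kit (-0.99) and Flt3 (-0.68) were among the lower ones. For DKO the median was 0.76, with 7 of 8 higher. The part of these lineage differences in the respiratory chain result was not tested.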

How the data were processed

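The authors deposited signal intensities (linear, arbitrary units) made with GCOS and MAS5 per the submitters' processing notes, and their 2% trimmed mean was 500 on each array. Per the labels' protocols, RNA was purified with RNeasy and labelled with biotin by an Affymetrix one cycle kit. For 34754 of 34958 single-gene probe sets the Entrez number in the array annotation led to RefSeq's current symbol, which was used. Probe sets of several genes (932) or none (9211) were left out, and 10 of those with several matched by symbol.

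Differences are log2 signals subtracted (X against Y is X minus Y), computed over all genes (Python, pandas and limma 3.58.1) and tested on simulated data. No test between genotypes was possible. Arrays of this kind limit precision by their number, 1 per genotype. Named genes were those at least 2-fold different, the 3 highest and lowest of each complex, core subunits and tissue-restricted isoforms, with further members for context. Members, lists and settings were chosen with earlier results of these data known. Other scalings, floors and probe set rules were tried as alternatives, with their effect given at the end. Promoters and names are from RefSeq (GRCm38.p6).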

Additional observations from a re-analysis of the deposited data

How the results depend on the processing

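With 1 array per genotype no replicate could be left out and no paired analysis was possible because the groups share no second sample. The members' median stayed below 0 in all 10 alternatives against WT, from -0.57 to -0.38 for p53 KO and from -0.50 to -0.26 for DKO, and for DKO against p53 KO it ran from 0.07 to 0.12. The alternatives were rescaling, quantile normalization, cyclic loess, floors at the 25th and 75th percentile, adding 32 to each signal in place of a floor, the mean of all probe sets, probe sets without _s_, _x_ or _a_ in their name, leaving out assembly factors and, chosen after seeing the data, bright members only. Relative to the median of all genes, the members' median lay -0.57 to -0.37 for p53 KO and -0.57 to -0.26 for DKO.

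Counts past 2-fold depended on the settings. With probe sets without those letters, 8 of 53 members were at least 2-fold lower on p53 KO (Cox5b, Cox6b2, Ndufa5, Ndufaf4, Ndufb5, Ndufc2, Ndufs8 and Uqcr11), against 4 of 71, and 6 of 53 on DKO. Over all genes 3.05% (p53 KO) and 2.94% (DKO) were as low under that rule. With the floor at the 25th percentile 1 member, Ndufb4, was 2-fold higher on DKO than on either other array. A 1.5-fold threshold gave 26 lower and 1 higher for p53 KO, 12 lower for DKO and 7 higher for DKO against p53 KO, and a 3-fold threshold left 1 lower in each comparison with WT, Cox6b2. Loess and the mean of all probe sets took Ndufb2 under 2-fold for p53 KO, and that mean also took Uqcrq under it for DKO. Medians by complex were judged against the gap between probe sets of a gene (0.27, 0.33 and 0.20) and moved by more in 3 cases. Assembly factors came to -0.25 for p53 KO with the 75th percentile floor, complex III to -0.25 for p53 KO with the restricted probe sets (the highest of the complexes there), and complex II to 0.15 for DKO against p53 KO with the mean of all probe sets. The causes were not tested.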
